A study of Mus musculus with 35 samples.

Results

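Erg, Fli1, Ets1 and Etv2 encode ETS-family transcription factors of the endothelium, and the regions described here are the open chromatin peaks around these 4 genes. Accessibility was measured by ATAC-seq, in which a transposase inserts sequencing adapters into open chromatin, in mouse embryos passing through the endothelial-to-hematopoietic transition. Peaks were chosen by position on build mm9, with their midpoint in a 390 kb window at Erg (chr16:95560000-95950000), a 220 kb window at Fli1 (chr9:32200000-32420000), a 230 kb window at Ets1 (chr9:32420001-32650000) or a 40 kb window at Etv2 (chr7:31400000-31440000). This gave 87 of the 76018 peaks, with 21 at Erg, 33 at Fli1, 27 at Ets1 and 6 at Etv2. Peaks are numbered along the genome within each window, so that Fli1 peak 7 is the seventh peak of the Fli1 window and not a peak shown to act on Fli1. The Fli1 and Ets1 windows adjoin. In the RefSeq gene table of build GRCm38.p6, Erg lies between Kcnj15 and Ets2, Fli1 and Ets1 are neighbours, and Etv2 lies between Cox6b1 and Rbm42. Which of these genes a peak overlaps was not analysed here, since no gene annotation of mm9 was used, and the Erg window may reach into Ets2.

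For each of 35 libraries, 1500 cells were sorted as 1 pool from the transgenic line 23GFP, which carries GFP under an enhancer of the blood factor gene Runx1. Every group, endothelial cells included, carries this transgene. Hemogenic endothelium (HE) and endothelial cells (EC) were each taken on 3 embryonic days, E8.5, E9.5 and then E10.5, and have 4 libraries a day. A population labelled pro-HSC/HPC, in which HSC stands for hematopoietic stem cell and HPC for hematopoietic progenitor cell, was taken at E9.5 with 3 libraries. Populations labelled pre-HSC II and pre-HSC I were taken at E10.5 with 4 libraries each. The tissue is labelled PAS+VU at E8.5, with the same label on the E9.5 libraries, and AGM+VU at E10.5, so that between E9.5 and E10.5 the day and the dissected tissue cannot be told apart. The sort gates, the ages beyond the day and any pooling of litters are not given in the labels, and p-values therefore measure only the spread between these libraries, which may be partly technical. In such pools, fewer cells with an open region and less opening per cell cannot be told apart. The labelled cell types were not checked against marker genes, since the table names peaks by position alone.

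ETS factors share a DNA-binding domain that recognises a core of GGAA. ETV2 acts early and briefly in the embryo, where it starts the endothelial and blood programmes in mesoderm. ERG and FLI1 are close relatives that then keep endothelial genes on, and both also act in blood stem and progenitor cells. ETS1 is active in endothelium of growing vessels and in lymphoid cells. Blood cells that leave the endothelium during the transition lose much of the endothelial programme.

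The sequences available here are the RefSeq promoters of GRCm38.p6, the 250 bases before an annotated start, which hold 3 entries for Erg and 1 for Etv2. They are shown because these factors bind the core GGAA, which is in capitals on either strand (as GGAA or TTCC). They are not placed on the mm9 peaks, so no accessibility value belongs to them. All 4 lie on the minus strand and are written 5′ to 3′.
Erg entry 1, chr16:95586594-95586843: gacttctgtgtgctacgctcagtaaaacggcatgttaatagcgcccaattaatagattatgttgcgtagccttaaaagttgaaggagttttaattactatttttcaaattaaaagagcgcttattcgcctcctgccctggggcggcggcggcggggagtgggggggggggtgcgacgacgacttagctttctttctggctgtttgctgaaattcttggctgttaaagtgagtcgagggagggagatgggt
Erg entry 2, chr16:95530366-95530615: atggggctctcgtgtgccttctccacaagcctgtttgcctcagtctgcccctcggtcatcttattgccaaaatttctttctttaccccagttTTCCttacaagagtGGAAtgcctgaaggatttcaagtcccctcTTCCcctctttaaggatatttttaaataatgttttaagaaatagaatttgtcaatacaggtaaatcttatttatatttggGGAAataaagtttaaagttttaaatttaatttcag
Erg entry 3, chr16:95459349-95459598: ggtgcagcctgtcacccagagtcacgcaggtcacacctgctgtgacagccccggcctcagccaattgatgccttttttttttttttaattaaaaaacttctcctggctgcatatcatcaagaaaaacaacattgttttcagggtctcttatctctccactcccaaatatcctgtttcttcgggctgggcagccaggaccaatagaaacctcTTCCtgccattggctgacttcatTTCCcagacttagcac
Etv2 entry 1, chr7:30635853-30636102: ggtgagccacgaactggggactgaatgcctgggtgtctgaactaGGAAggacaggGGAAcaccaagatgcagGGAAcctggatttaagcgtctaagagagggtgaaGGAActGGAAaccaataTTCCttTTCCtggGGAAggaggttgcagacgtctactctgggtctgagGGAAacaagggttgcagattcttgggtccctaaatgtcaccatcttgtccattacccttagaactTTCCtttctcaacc
Counted on both strands, GGAA occurs 10 times before the Etv2 start, and 0, 4 and 2 times in Erg entries 1, 2 and 3. Over all 32851 promoters of the same length the median was 3, and 93.4% held at least 1. The longer CAGGAA, which contains GGAA, occurs once each in Erg entry 3 and Etv2 and in 25.7% of all promoters. CCGGAA, which also contains GGAA, occurs in none of the 4 and in 12% of all promoters. GATAA, the core bound by GATA factors, occurs once in Erg entry 3, in none of the other 3 and in 22.6% of all promoters. These are matches of letters and not binding sites.

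Summed over peaks, libraries held from 456770 to 7415315 counts. Depth was lowest in pre-HSC II, from 456770 to 1241216, against 2117133 to 5371760 in E10.5 EC. Libraries 2 and 3 of pre-HSC I differed by less than the sampling noise and were counted as 1 sample, which leaves 34 samples, with 3 for pre-HSC I (library 1, the mean of libraries 2 and 3, and library 4). Levels are given as CPM, in which counts are scaled to a common size of library after TMM adjustment. Libraries 1 and 2 of both E8.5 groups and libraries 1 and 4 of E10.5 HE were shallow, at 1004036 to 1634087 counts. Libraries 3 and 4 of E9.5 EC and library 4 of E9.5 HE held 6470 to 9126 counts in a single chromosome X peak, against at most 1282 in any other library. Some results that rest on these libraries, but not all, are also given without them. Other libraries of like depth, such as library 3 of pro-HSC/HPC at 1232426 and library 1 of pre-HSC I at 1632752, were left out only 1 at a time. A peak was called where the adjusted p of edgeR's quasi-likelihood test, over all 67108 peaks tested, was under 0.05. For counts under an alternative setting, the share of all peaks called in that setting is not given. A rise or fall in such counts need not be particular to these windows. Where libraries of 2 groups are said not to overlap, the share of all peaks so separated is not given. Peaks were mostly named for their level or adjusted p in these same libraries, so such separation adds no support to a call.

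Of the 87 peaks, 74 passed the count filter, with 17 at Erg, 30 at Fli1, 22 at Ets1 and 5 at Etv2. The 13 that did not were 119 to 590 bp wide and averaged 0.931 to 2.36 CPM over the 9 groups. The 87 peaks had a median width of 696 bp, against 496 bp over all peaks. A few peaks held much of the signal of each window. The 3 highest held 82.6% of the summed CPM at Etv2, 52.7% at Ets1, 49.8% at Erg and 37.5% at Fli1. Per length, the densest were Etv2 peak 6 at 71.2 CPM per kb, Ets1 peak 13 at 61.3, Ets1 peak 23 at 46.35 and Ets1 peak 3 at 40.3. The widest, Fli1 peak 19 (5635 bp, chr9:32347721-32353356), had the highest CPM of all members, 123.5 averaged over the 9 groups, and only 21.9 CPM per kb.

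**Figure D1:**
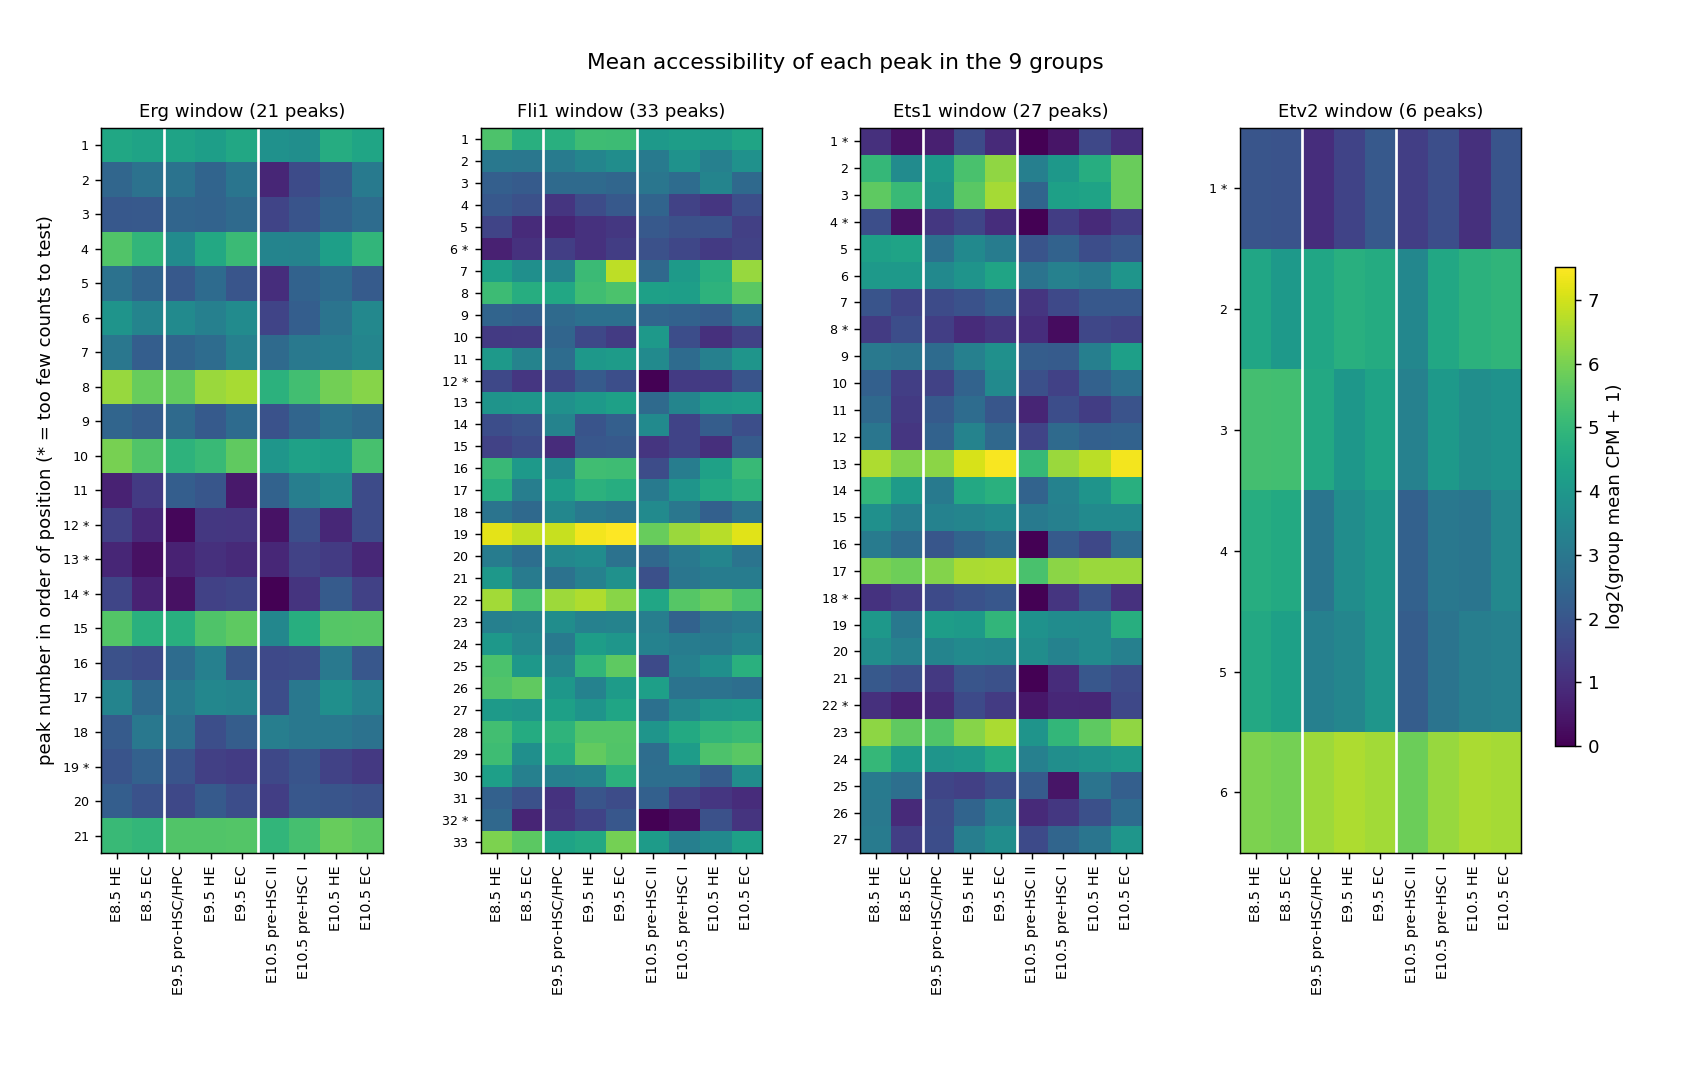
Mean level of each of the 87 peaks in the 9 groups, as log2 of the group's mean CPM plus 1 (color), with peaks in order of position down each window and groups along the horizontal axis, divided by day. Most of the bright rows, such as Ets1 peaks 2, 3 and 13, are darkest in pre-HSC II, whereas Fli1 peaks 10 and 14 are brightest there and Fli1 peak 26 is brightest at E8.5.

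The Ets1, Fli1 and Erg windows had their highest mean sum in E9.5 EC and the Etv2 window in E8.5 HE, and all 4 had their lowest in pre-HSC II. At Ets1 the summed CPM was 172 ± 27.2 in pre-HSC II, 313 ± 68.6 in pre-HSC I, 404 ± 132 in HE and 615 ± 126 in EC at E10.5 (SD, n = 4, 3, 4 and 4). At E9.5 it was 324 ± 54.2 in pro-HSC/HPC, 546 ± 36.5 in HE and 736 ± 34.3 in EC (SD, n = 3, 4 and 4). At E8.5 it was 518 ± 24.7 in HE and 346 ± 66.9 in EC (SD, n = 4 each). The E9.5 populations did not overlap: pro-HSC/HPC libraries lay at 359.7, 349.6 and 261, HE libraries at 550.4, 584, 496 and 555 and EC libraries at 739, 776, 692 and 738. At E10.5, pre-HSC II lay below every library of the other populations, and the libraries of pre-HSC I and HE overlapped, as did those of HE and EC.

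The Fli1 window followed a like course, with its highest mean of 891 ± 98.2 in E9.5 EC (SD, n = 4). At E10.5 its sums averaged 305 ± 43.3 in pre-HSC II, 367 ± 79.7 in pre-HSC I, 488 ± 193 in HE and 663 ± 169 in EC (SD, n = 4, 3, 4 and 4). At E9.5 pro-HSC/HPC averaged 517 ± 73.5 (SD, n = 3) and HE 739 ± 80.2 (SD, n = 4), and at E8.5 HE averaged 763 ± 67.9 and EC 505 ± 128 (SD, n = 4 each). Pre-HSC II and pre-HSC I overlapped here, unlike at Ets1. The pre-HSC II mean was 27.9% of the E10.5 EC mean at Ets1, 42.9% at Erg, 46% at Fli1 and 54.5% at Etv2.

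At Erg the sums at E10.5 averaged 139.8 ± 37.3 in pre-HSC II, 202 ± 25.5 in pre-HSC I, 300 ± 88.5 in HE and 326 ± 91.2 in EC (SD, n = 4, 3, 4 and 4). At E9.5 they averaged 243 ± 64.3 in pro-HSC/HPC, 308 ± 34.7 in HE and 356 ± 50.4 in EC (SD, n = 3, 4 and 4), and at E8.5 353 ± 34 in HE and 259 ± 41.1 in EC (SD, n = 4 each). HE lay above EC at E8.5 without overlap, HE and EC overlapped on both later days, and pre-HSC II overlapped pre-HSC I. At Etv2, 8 of the 9 groups had means from 135.4 to 173.6 CPM, and pre-HSC II stood at 84.1 ± 38.3 (SD, n = 4), with a range that overlapped that of E10.5 EC. Over the 9 group means, which share libraries and scaling between windows, the sums of any 2 windows correlated with Pearson r from 0.816 (Fli1 and Etv2) to 0.949 (Erg and Ets1).

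**Figure D2:**
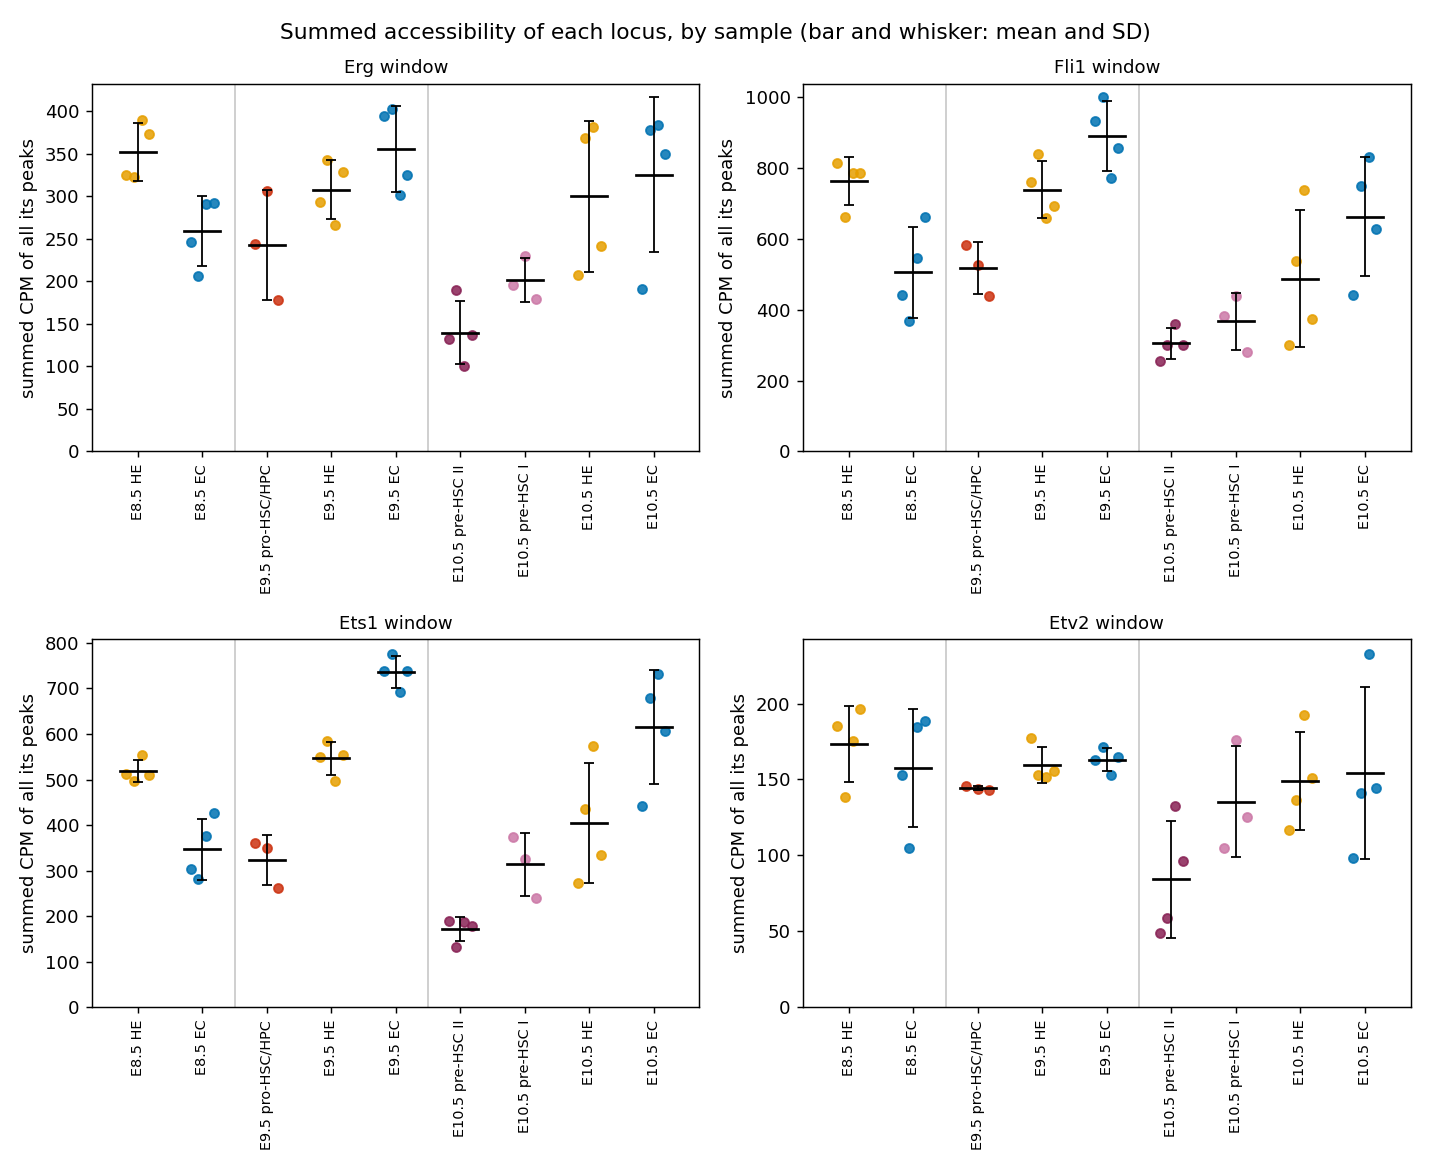
Summed CPM of all peaks of each window (vertical axes) in each sample (points) by group, with the mean (bar) and SD (whisker). At Ets1 the 3 populations of E9.5 do not overlap and pre-HSC II lies below all other groups, with a mean of 171.8 CPM against 614.9 CPM in E10.5 EC, whereas at Etv2 most groups overlap.

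Of the 74 peaks tested, 41 were called in at least 1 of the 13 comparisons between groups, 17 of 30 at Fli1, 14 of 22 at Ets1, 8 of 17 at Erg and 2 of 5 at Etv2. Of all 67108 peaks tested, 35.9% were called in at least 1. Called peaks were wider and stronger than the rest, with median widths of 897 and 593 bp and median levels of 19.4 and 7.07 CPM. The lowest group mean fell in pre-HSC II for 43 of the 74, or 58.1%, against 27.8% of all peaks tested. The highest fell in E9.5 EC for 20 and in E8.5 HE for 19, or 27% and 25.7%, against 11.3% and 12.8% of all peaks. Comparisons that share a group are not independent, and values are given for each on its own.

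Setting HE against EC within a day asks which regions differ as endothelium becomes hemogenic. At E8.5, 6 of the 74 peaks were called, all more open in HE, which is 8.11%, against 1.31% of all peaks called higher and 0.13% called lower. At E9.5, 3 peaks were called, all less open in HE, which is 4.05%, against 1.21% of all peaks called lower and 1.36% called higher. At E10.5, 1 peak was called higher in HE and 2 lower, which is 1.35% and 2.7%, against 0.717% and 1.57% of all peaks. The median log2 fold change of the 74 was 0.48 at E8.5, -0.22 at E9.5 and -0.26 at E10.5, against 0.02, 0.05 and 0.01 over all peaks.

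At E8.5 the HE calls lay at Fli1 peaks 17, 22 and 29 and at Ets1 peaks 2, 26 and 27. Fli1 peak 29 (chr9:32401906-32403775) had 33.8, 28.7, 42.2 and 36.4 CPM in HE libraries 1 to 4, against 13, 5.23, 11.4 and 19.9 CPM in EC libraries 1 to 4. All 4 HE libraries lay above all EC libraries, by 1.46 ± 0.32 on the log2 scale (SE, adjusted p = 0.00788). Ets1 peak 2 (chr9:32420391-32421344) had 26.5, 36.5, 33.3 and 29.8 CPM in HE and 10.1, 13.9, 6.44 and 14.9 CPM in EC. Here too the libraries did not overlap, and the fold change was 1.49 ± 0.36 on the log2 scale (SE, adjusted p = 0.0168). Ets1 peak 26 (chr9:32568723-32569409) was weak, at 7.23, 11.1, 7.35 and 3.29 CPM in HE and 0.722, 0.872, 0.379 and 1.42 CPM in EC, and differed by 2.96 ± 0.75 (log2, SE, adjusted p = 0.0243). No peak was called at E8.5 without libraries 1 and 2 of both groups, which leaves 2 libraries in each, and 1 was called without EC library 2 or HE library 3, 2 without EC library 1 or 3, and 3 without HE library 4. Thinning every library at random to the shallowest total, after which 35 of the 74 passed the count filter, left 2.

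At E9.5 the 3 peaks called lower in HE all lay in the Fli1 window, and 2 of them near its border with Ets1. Fli1 peak 7 (chr9:32311441-32312333) had 35.4, 40.4, 28.5 and 30.5 CPM in HE, against 93.4, 98.2, 117 and 123 CPM in EC. The HE libraries held about the same level among themselves and all lay below EC, by -1.66 ± 0.32 on the log2 scale (SE, adjusted p = 0.000928). Fli1 peak 33 (chr9:32414680-32415545) had 24.9, 22.8, 24.5 and 16.1 CPM in HE and 59, 64.8, 64.5 and 56.6 CPM in EC, a fold change of -1.46 ± 0.32 (log2, SE, adjusted p = 0.00359). Fli1 peak 30 (chr9:32410591-32411226) had 7.33, 11.9, 10.3 and 7.83 CPM in HE and 21.6, 31.9, 26.5 and 30.6 CPM in EC, a call lost when any 1 library was left out (log2 fold change -1.56 ± 0.46, SE, adjusted p = 0.0444). At these 3 peaks, picked by adjusted p, every HE library lay below every EC library, which is no separate support for the calls. No peak was called without the 3 libraries high on chromosome X, which leaves 3 HE and 2 EC libraries, and 11 were called, 10 of them lower, with only the E9.5 HE and EC libraries in the fit.

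At E10.5 the strongest call was again Fli1 peak 7, with 4.83, 32.7, 46.1 and 20.1 CPM in HE and 53.7, 100.4, 107 and 62.7 CPM in EC. All 4 HE libraries lay under every EC library, with the shallow HE libraries 1 and 4 the lowest (log2 fold change -1.57 ± 0.33, SE, adjusted p = 0.00331). Whether depth contributes to the difference was not tested. Ets1 peak 3 (chr9:32425944-32426859) had 4.83, 21.4, 34.8 and 17.7 CPM in HE and 33.9, 65.8, 66.5 and 54.5 CPM in EC, with HE library 3 above EC library 1 (log2 fold change -1.42 ± 0.34, SE, adjusted p = 0.0128). Erg peak 11 (chr16:95673976-95674340) was higher in HE, at 12.1, 9.53, 11.7 and 9.67 CPM, against 3.77, 0.397, 3.17 and 1.76 CPM in EC (log2 fold change 2.29 ± 0.65, SE, adjusted p = 0.0414). It is a weak peak of 364 bp, and the groups did not overlap, but its call was lost when any 1 library other than EC library 1 was left out. Same-numbered E10.5 HE and EC libraries deviated together (r 0.115 to 0.329, against at most 0.175 for other numbers). The labels do not say that they were paired. With the replicate number as a block, 5 peaks were called, 1 higher and 4 lower. No peak was called without the shallow HE libraries 1 and 4 or with only the 2 groups in the fit, 1 was called without EC library 2 or HE library 1, 6 without EC library 1 and 7 without HE library 3.

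The change of the HE against EC difference between E8.5 and E9.5 was tested directly, as an interaction. It was called at 7 of the 74 peaks, all towards a lower value in HE relative to EC at E9.5, which is 9.46%, against 1.21% of all peaks in that direction and 0.282% in the other. Ets1 peak 2, higher in HE at E8.5, had 38.5, 44.5, 37.6 and 41.5 CPM in HE and 67.2, 86.8, 76 and 76 CPM in EC at E9.5, an interaction of -2.40 ± 0.48 on the log2 scale (SE, adjusted p = 0.00427). At Fli1 peak 7 the interaction was -2.16 ± 0.48 (log2, SE, adjusted p = 0.00949) and at Fli1 peak 33 -1.85 ± 0.44 (log2, SE, adjusted p = 0.0175). The other 4 were Fli1 peaks 25 and 30 and Ets1 peaks 26 and 27. None was called without the shallow E8.5 libraries or without the E9.5 libraries that were high at the chromosome X peak, 3 were called without E8.5 EC library 1 or E9.5 HE library 1, and 4 without E8.5 EC library 2, E8.5 HE library 1, 2 or 4, or E9.5 HE library 3 or 4. For the change over the next interval, E9.5 to E10.5, the count was 0 of the 74 by edgeR and 0 by DESeq2, none had an unadjusted p under 0.05, and 0% of all peaks were called.

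In EC, peaks at Ets1 and Fli1 opened between E8.5 and E9.5. Of the 74 peaks, 17 were called higher in E9.5 EC than in E8.5 EC and 1 lower, 23% and 1.35%, against 6.49% and 4.59% of all peaks. The 17 comprised 9 of 22 tested peaks at Ets1 and 8 of 30 at Fli1, with none called at Erg or Etv2. The median log2 fold change was 0.90 at Ets1, 0.52 at Fli1, 0.25 at Erg and -0.36 at Etv2, against -0.07 over all peaks. Over all 4 windows it was 0.53, or 0.45 with RLE size factors and 0.30 with total counts, where the median of all peaks stood at -0.15 and -0.30.

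Fli1 peak 7 had the smallest adjusted p, with 93.4, 98.2, 117 and 123 CPM in E9.5 EC, against 10.1, 12.2, 8.71 and 19.1 CPM in E8.5 EC. Every E9.5 library lay above every E8.5 library, and the log2 fold change was 3.07 ± 0.36 (SE, adjusted p = 1.74e-08). Ets1 peak 2 had 67.2, 86.8, 76 and 76 CPM in E9.5 EC and 10.1, 13.9, 6.44 and 14.9 CPM in E8.5 EC, a fold change of 2.76 ± 0.36 (log2, SE, adjusted p = 2.97e-07). Fli1 peak 29 had 42.8, 49.4, 42.4 and 38.7 CPM in E9.5 EC and 13, 5.23, 11.4 and 19.9 CPM in E8.5 EC, a fold change of 1.74 ± 0.32 (log2, SE, adjusted p = 0.000181). These 3 peaks stayed called under all the alternatives run for them, leaving out any library included. The peak that fell was Fli1 peak 26 (chr9:32389270-32390320), with 19.2, 20.2, 13.2 and 13.4 CPM in E9.5 EC and 50.5, 43.6, 51.9 and 57.1 CPM in E8.5 EC (log2 fold change -1.59 ± 0.34, SE, adjusted p = 0.00095). The call at peak 26 was lost without the E9.5 libraries that were high at the chromosome X peak. The 18 calls became 5, with 4 higher, without the shallow E8.5 libraries and 9, with 8 higher, after thinning.

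From E9.5 to E10.5 few peaks changed in EC, and both calls were falls at Fli1. They are 2.7% of the 74, against 0.249% of all peaks called lower and 0.0671% called higher. Fli1 peak 33 had 10.8, 24, 21.3 and 17.3 CPM in E10.5 EC, against 59, 64.8, 64.5 and 56.6 CPM in E9.5 EC (log2 fold change -1.71 ± 0.32, SE, adjusted p = 0.00289). Fli1 peak 26 had 2.83, 6.15, 9.79 and 3.81 CPM in E10.5 EC, against 19.2, 20.2, 13.2 and 13.4 CPM in E9.5 EC (log2 fold change -1.53 ± 0.36, SE, adjusted p = 0.0325). The call at peak 26 was lost without any of EC libraries 1 and 2 of E9.5 or 1, 2 and 4 of E10.5, which left 1 peak called.

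In HE no peak was called higher at E9.5 than at E8.5. Of the 74 peaks, 3 were called lower in E9.5 HE than in E8.5 HE, 4.05%, against 1.24% of all peaks called lower and 0.893% called higher. Fli1 peak 26 had 11.9, 11.7, 6.84 and 5.87 CPM in E9.5 HE and 53, 35.2, 46.9 and 39.5 CPM in E8.5 HE (log2 fold change -2.20 ± 0.34, SE, adjusted p = 6.49e-05). Fli1 peak 33 had 24.9, 22.8, 24.5 and 16.1 CPM in E9.5 HE and 69.9, 71.8, 61.4 and 54.7 CPM in E8.5 HE (log2 fold change -1.53 ± 0.32, SE, adjusted p = 0.00291). At both peaks every E9.5 library lay below every E8.5 library. Peak 26 fell in both populations over the first interval, while peak 33 was called lower in HE over the first interval and in EC over the second. Between E9.5 and E10.5, edgeR called 0 of the 74 in HE, with 15 at an unadjusted p under 0.05, 2 called by DESeq2, 3 without E10.5 HE library 3 and 1 without E10.5 HE library 2, against 0.495% of all peaks called lower and 0.0626% called higher. The first of these HE comparisons fell to 1 call without the shallow E8.5 libraries or without the E9.5 library high on chromosome X, and rose to 15 calls, 9 of them lower, with only the 2 groups in the fit.

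**Figure D3:**
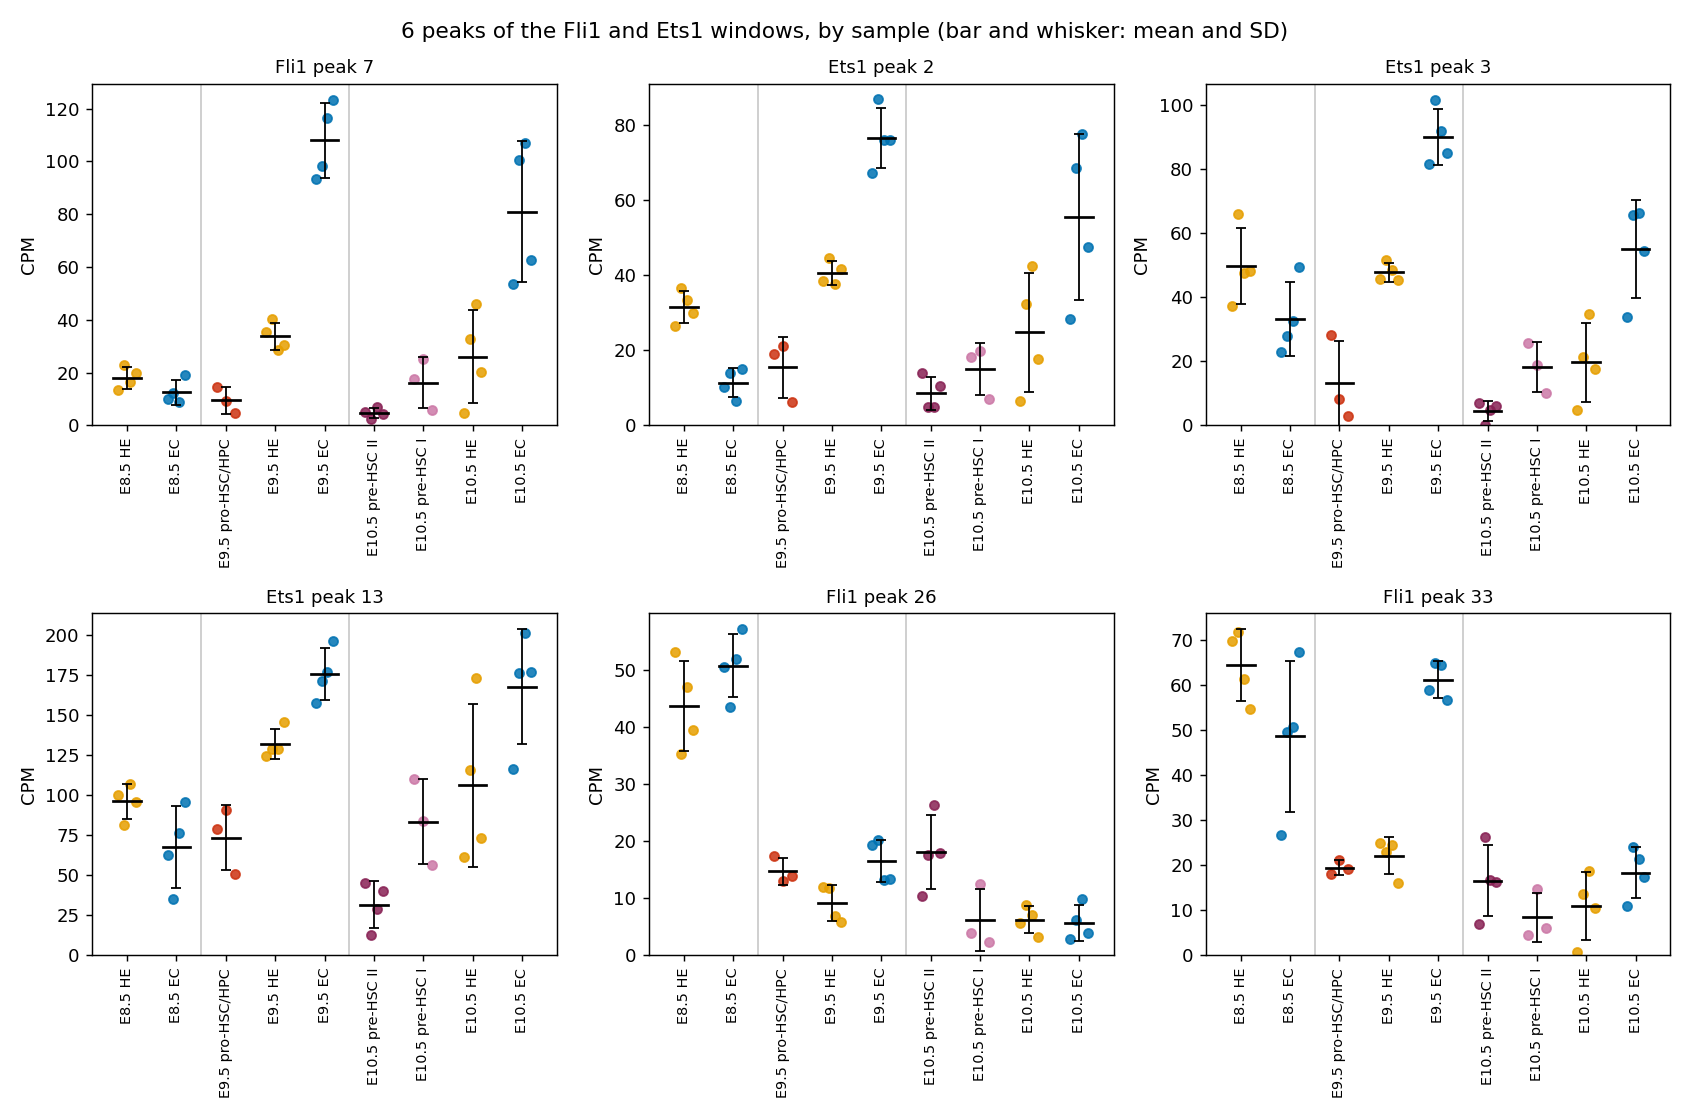
CPM (vertical axes) of 6 peaks of the Fli1 and Ets1 windows in each sample (points) by group, with the mean (bar) and SD (whisker). Fli1 peak 7 and Ets1 peaks 2, 3 and 13 are highest in E9.5 EC and lowest in pre-HSC II, Fli1 peak 26 is highest at E8.5 in both populations, and Fli1 peak 33 is low in E9.5 HE, at 16.1 to 24.9 CPM, but not yet in E9.5 EC, at 56.6 to 64.8 CPM.

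At E9.5, peaks of the Fli1 and Ets1 windows were called lower in pro-HSC/HPC than in the endothelium of the same day. Against EC, pro-HSC/HPC had 15 of the 74 peaks called lower and 1 higher, 20.3% and 1.35%, where 6.8% and 5.05% of all peaks were called. Of the lower peaks 7 lay at Fli1, 7 at Ets1 and 1 at Erg, the higher one lay at Erg, and no Etv2 peak was called. Against HE, 5 peaks were called, all lower in pro-HSC/HPC, 6.76%, where 1.1% of all peaks were called lower and 0.644% higher. The median log2 fold change of the 74 was -0.58 against EC and -0.43 against HE, with 0.13 and 0.02 over all peaks. With total counts the median against EC was -0.46, and that of all peaks 0.26.

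Fli1 peak 7 had 14.7, 9.24 and 4.62 CPM in pro-HSC/HPC libraries 1 to 3, under every HE and EC library of the day given above. The log2 fold change was -1.73 ± 0.39 against HE (SE, adjusted p = 0.0107) and -3.39 ± 0.40 against EC (SE, adjusted p = 1.13e-08). The 3 populations of E9.5 were thus fully separate at this peak. Ets1 peak 3 had 28.3, 8.31 and 3.08 CPM in pro-HSC/HPC, 45.9, 51.8, 48.5 and 45.4 CPM in HE and 81.6, 102, 91.9 and 85.1 CPM in EC. Its fold change was -1.70 ± 0.39 against HE (log2, SE, adjusted p = 0.0112) and -2.61 ± 0.40 against EC (log2, SE, adjusted p = 2.46e-06). Library 1 of pro-HSC/HPC was the highest of the 3 at both peaks and library 3 the lowest.

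Fli1 peak 16 (chr9:32333153-32334090) had 14.2, 15.7 and 4.62 CPM in pro-HSC/HPC and 37.2, 43.7, 36.5 and 26.6 CPM in HE (log2 fold change -1.58 ± 0.40, SE, adjusted p = 0.0245). Ets1 peak 2 had 19.1, 21.2 and 6.16 CPM in pro-HSC/HPC, against the EC values given above, a fold change of -2.24 ± 0.38 (log2, SE, adjusted p = 1.69e-05). The single peak higher in pro-HSC/HPC was the weak Erg peak 11, with 4.35, 2.31 and 4.62 CPM, against 0.776, 0.954, 0 and 0 CPM in EC (log2 fold change 2.60 ± 0.80, SE, adjusted p = 0.0213). The 5 calls against HE became 0 without pro-HSC/HPC library 3, the shallowest of its group. They became 1 without pro-HSC/HPC library 2 or after thinning, 2 without pro-HSC/HPC library 1 or HE library 1 or 2, and 13 with only the 2 groups in the fit. The call at Erg peak 11 was lost without pro-HSC/HPC library 1 or 3 or EC library 4. The 16 calls against EC became 9 after thinning, all lower, and 25, all lower, with only the 2 groups in the fit.

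At E10.5 more peaks were called lower in pre-HSC II than in pre-HSC I, each set against the same EC libraries. Pre-HSC II had 30 of the 74 peaks called lower than EC and 3 higher, 40.5% and 4.05%, where 16.2% and 9.13% of all peaks were called. Pre-HSC I had 13 called lower, 17.6%, where 3.72% of all peaks were called lower and 2.19% higher. Set directly against pre-HSC I, pre-HSC II had 7 called lower and 1 higher, 9.46% and 1.35%, where 4.29% and 0.852% of all peaks were called. Pre-HSC I against HE gave 0 calls by edgeR, with 11 at an unadjusted p under 0.05 and 1 called by DESeq2, where 0.0134% of all peaks were called lower and 0.0656% higher.

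Fli1 peak 7 had 5.21, 2.5, 7.17 and 4.45 CPM in pre-HSC II, 17.4, 25.1 and 5.95 CPM in pre-HSC I and 53.7, 100.4, 107 and 62.7 CPM in EC. Both blood groups lay under every EC library, by -4.07 ± 0.45 in pre-HSC II (log2, SE, adjusted p = 3.08e-10) and -2.31 ± 0.38 in pre-HSC I (log2, SE, adjusted p = 6.81e-05). Ets1 peak 13 (chr9:32479304-32480995), the strongest of its window, had 45.1, 12.5, 28.7 and 40.1 CPM in pre-HSC II, 109.8, 83.8 and 56.5 CPM in pre-HSC I and 116, 176, 201 and 177 CPM in EC. Each of these 3 groups lay wholly under the next. Pre-HSC II differed by -1.40 ± 0.31 from pre-HSC I (log2, SE, adjusted p = 0.00342) and by -2.41 ± 0.29 from EC (log2, SE, adjusted p = 3.62e-09). Ets1 peak 3 had 6.94, 0, 4.78 and 5.94 CPM in pre-HSC II and 25.8, 18.8 and 10.1 CPM in pre-HSC I. Its fold change was -2.02 ± 0.55 against pre-HSC I (log2, SE, adjusted p = 0.0189) and -3.63 ± 0.48 against EC (log2, SE, adjusted p = 3.11e-08).

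Ets1 peak 2 had 18.1, 19.8 and 7.14 CPM in pre-HSC I and 28.3, 68.4, 77.4 and 47.4 CPM in EC (log2 fold change -1.89 ± 0.38, SE, adjusted p = 0.000923). Fli1 peak 16 had 15.5, 4.06 and 4.76 CPM in pre-HSC I and 24, 41.1, 40.3 and 25.8 CPM in EC (log2 fold change -2.06 ± 0.44, SE, adjusted p = 0.0016). At both peaks, again picked by adjusted p, the 2 groups were separate. Fli1 peak 29 had 6.94, 2.5, 4.78 and 7.42 CPM in pre-HSC II and 20.7, 17.8 and 11.9 CPM in pre-HSC I (log2 fold change -1.59 ± 0.46, SE, adjusted p = 0.0303).

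Some weak Ets1 peaks had almost no reads in pre-HSC II, and another had almost none in pre-HSC I. Ets1 peak 16 (chr9:32499969-32500361) had 0 counts in the 4 pre-HSC II libraries, against 18 counts in pre-HSC I and 88 in EC, so it was at least 4.11-fold lower than in pre-HSC I and at least 7.43-fold lower than in EC, taking 3 counts over the group as the floor. Ets1 peak 21 (chr9:32522223-32522427) had 0 counts in pre-HSC II against 36 in EC, at least 3.04-fold lower. Ets1 peak 26 had 2 counts in pre-HSC II and 74 in EC, a ratio of 0.107 (95% exact interval 0.0127 to 0.399). Ets1 peak 25 (chr9:32560154-32560577) had 2 counts in pre-HSC I and 55 in EC, a ratio of 0.0983 (0.0116 to 0.372). In pre-HSC II peak 25 was not called against EC (log2 fold change -0.21 ± 0.70, SE). In pre-HSC I peaks 16, 21 and 26 were not called against EC (log2 fold changes -0.70, -1.32 and -1.92). These bounds and intervals cover counting error only and take each count as independent. If reads come in pairs, the bounds are too high and the intervals too narrow. The median log2 fold change of the 74 in pre-HSC II against EC was -1.17. The 2 peaks at 0 counts lie below that median at their bounds too, so placing them there could not move it.

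The 3 peaks called higher in pre-HSC II than in EC all lay in the Fli1 window. Fli1 peak 26, which fell between E8.5 and E9.5 in both HE and EC, had 10.4, 17.5, 26.3 and 17.8 CPM in pre-HSC II, 3.88, 12.4 and 2.38 CPM in pre-HSC I and 2.83, 6.15, 9.79 and 3.81 CPM in EC. Its log2 fold change was 1.65 ± 0.40 against EC (SE, adjusted p = 0.00107) and 1.5 ± 0.45 against pre-HSC I, where 1 library overlapped (SE, adjusted p = 0.0371). Its level in pre-HSC II was still below that at E8.5. Fli1 peak 10 (chr9:32316295-32316588) had 19.1, 16.3, 13.1 and 14.1 CPM in pre-HSC II and 3.77, 0.198, 0.576 and 2.63 CPM in EC (log2 fold change 3.20 ± 0.81, SE, adjusted p = 0.00194). Fli1 peak 14 (chr9:32328941-32329684) had 22.6, 11.3, 9.56 and 1.49 CPM in pre-HSC II and 3.77, 1.59, 1.15 and 3.51 CPM in EC, with library 4 of pre-HSC II inside the EC range (log2 fold change 2.10 ± 0.75, SE, adjusted p = 0.0308). Outside pre-HSC II, the group means of peaks 10 and 14 were at most 4.46 and 9.33 CPM, both in pro-HSC/HPC. Peak 10 may therefore have passed the count filter mainly through pre-HSC II, the group in which it was then called higher. The call at peak 14 was lost without any of EC libraries 2 and 3 or pre-HSC II libraries 1 and 2, and that at peak 26 against pre-HSC I without pre-HSC I library 1 or 4 or pre-HSC II library 2 or 3.

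**Figure D4:**
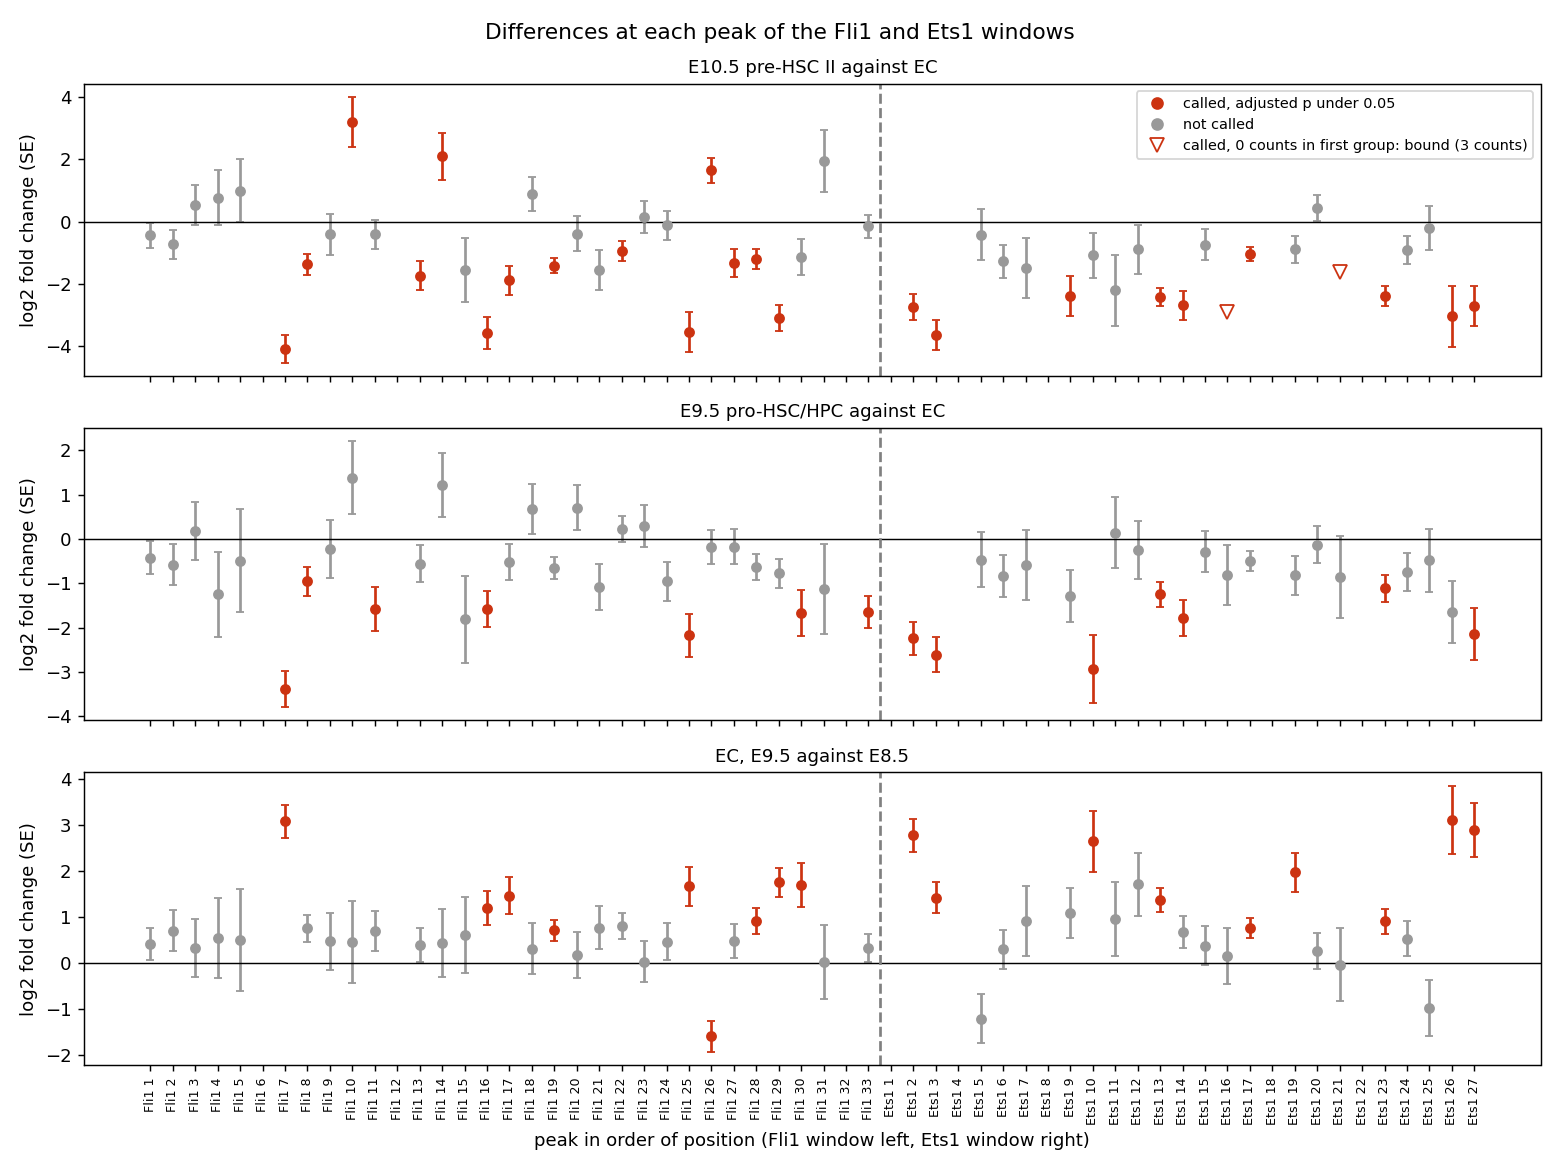
Log2 fold change with its SE at each peak of the Fli1 and Ets1 windows, in order of position (horizontal axis), for pre-HSC II against EC at E10.5, for pro-HSC/HPC against EC at E9.5 and for E9.5 EC against E8.5 EC. Red points were called, grey ones were not, gaps are peaks not tested, and open triangles are peaks with 0 counts in pre-HSC II drawn at their bound. Among peaks not drawn at a bound, Fli1 peak 7 is the lowest point in both blood groups, at -4.07 and -3.39, and stands at 3.07 in the comparison of days.

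The calls in blood groups of E10.5 depended on scaling and on single libraries to differing degrees. The shares of all peaks called under these alternatives are not given. Pre-HSC II against EC gave 31 calls with RLE size factors, 30 with scaling by total counts and 30 to 41 without any 1 library, but 13 after thinning every library to the shallowest total, which is a pre-HSC II library, 12 of them lower. Pre-HSC II against pre-HSC I gave 2 calls with RLE size factors, 1 higher and 1 lower, 3 with scaling by total counts, 1 higher and 2 lower, and 7 by DESeq2, 4 higher and 3 lower. It gave 0 calls without pre-HSC I library 1, 3 without pre-HSC II library 2 and 5 without pre-HSC II library 3, and the calls at Fli1 peak 29 and Erg peak 15 were lost under both scalings and without pre-HSC I library 1. The median of all peaks in this comparison was -0.17 with the TMM scaling used here, 0.11 with RLE size factors and 0.10 with total counts, beside -0.68, -0.38 and -0.39 for the 74. Pre-HSC I against EC gave 6 calls without pre-HSC I library 4 and 20 without EC library 1. Pre-HSC I against HE gave 8 calls, all lower, without the shallow HE libraries 1 and 4, and 1 without HE library 4 alone. Against EC, the all-peak median of pre-HSC II was -0.14 with TMM, 0.13 with RLE size factors and 0.21 with total counts, beside -1.17, -0.87 and -0.80 for the 74.

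At Erg 8 of 17 tested peaks were called in any comparison, where 35.9% of all peaks were. In pre-HSC II against EC 7 of the 17 were lower, where 16.2% of all peaks were called lower. The strongest, Erg peak 8 (chr16:95660296-95661865), had 10.4, 42.6, 23.9 and 34.1 CPM in pre-HSC II and 46.2, 81.1, 82.6 and 70.6 CPM in EC (log2 fold change -1.29 ± 0.31, SE, adjusted p = 0.00124). Erg peak 15 (chr16:95680383-95681561) had 13.9, 17.5, 7.17 and 2.23 CPM in pre-HSC II, 25.2, 21.8 and 29.2 CPM in pre-HSC I and 26.4, 50.4, 61.6 and 48 CPM in EC. It was called against both, by -1.45 ± 0.43 from pre-HSC I (log2, SE, adjusted p = 0.0358, a call lost with RLE size factors or total counts) and -2.33 ± 0.39 from EC (log2, SE, adjusted p = 5.75e-06). Erg peak 21 (chr16:95923364-95924701), the last of the window, passed the test in none of the 13 comparisons, with group means from 29.8 ± 13.8 CPM in pre-HSC II to 53.8 ± 20.1 CPM in E10.5 HE (SD, n = 4 each).

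At Etv2, 2 of the 5 peaks tested were called in any comparison, once each, where 35.9% of all peaks were called at least once. The peak with the most reads, Etv2 peak 6 (chr7:31434664-31435779), was called in no comparison and had 31.2, 45.1, 81.2 and 65.3 CPM in pre-HSC II and 57.5, 78, 143 and 79.9 CPM in E10.5 EC, which overlap. Etv2 peaks 3, 4 and 5 had their highest group mean in E8.5 HE. Of these, peak 3 (chr7:31418836-31420351) had 22, 16.4, 7.98 and 12.9 CPM in E9.5 HE and 43.4, 39.2, 27.9 and 39.9 CPM in E8.5 HE, a fall of 1.28 on the log2 scale (SE 0.35, adjusted p = 0.0353). The call was lost without any of E8.5 HE libraries 1, 2 and 4 or E9.5 HE libraries 2, 3 and 4. Peaks 4 and 5 did not pass the test between any groups. Peak 4 averaged 24.7 ± 1.92 CPM at E8.5, 11.9 ± 5.78 CPM at E9.5 and 6.65 ± 6.34 CPM at E10.5 in HE (SD, n = 4 each). Peak 2 (chr7:31410743-31411517) was the other call of the window, with 10.4, 2.5, 13.1 and 14.8 CPM in pre-HSC II and 26.4, 26, 40.3 and 25.2 CPM in E10.5 EC (log2 fold change -1.47 ± 0.36, SE, adjusted p = 0.00158).

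The other leading peaks of Fli1 and Ets1 fell in pre-HSC II too. Fli1 peak 19, the widest, had 59, 50.1, 41.8 and 66.1 CPM in pre-HSC II and 97.5, 147, 204 and 126 CPM in EC (log2 fold change -1.40 ± 0.25, SE, adjusted p = 2.09e-05). Fli1 peak 22 (chr9:32362265-32364570) had 17.4, 17.5, 29.9 and 19.3 CPM in pre-HSC II and 35.8, 35.5, 41.5 and 49.8 CPM in EC (log2 fold change -0.94 ± 0.33, SE, adjusted p = 0.0254). In pro-HSC/HPC the same peak was not called, at 102, 98.4 and 53.2 CPM, against 72.6, 85.6, 68.9 and 62.6 CPM in E9.5 EC, which overlap. Ets1 peak 17 (chr9:32502465-32504801) had 38.2, 43.8, 33.5 and 46.8 CPM in pre-HSC II and 77.7, 67.6, 100.5 and 87.8 CPM in EC (log2 fold change -1.03 ± 0.23, SE, adjusted p = 0.000412). Ets1 peak 23 (chr9:32523080-32524290) had 3.47, 7.51, 28.7 and 16.3 CPM in pre-HSC II and 55.6, 88.7, 95.6 and 65.6 CPM in EC (log2 fold change -2.37 ± 0.32, SE, adjusted p = 6.76e-08). At these 4 peaks the pre-HSC II libraries lay below all EC libraries. The share of all peaks separated in this way is not given.

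**Figure D5:**
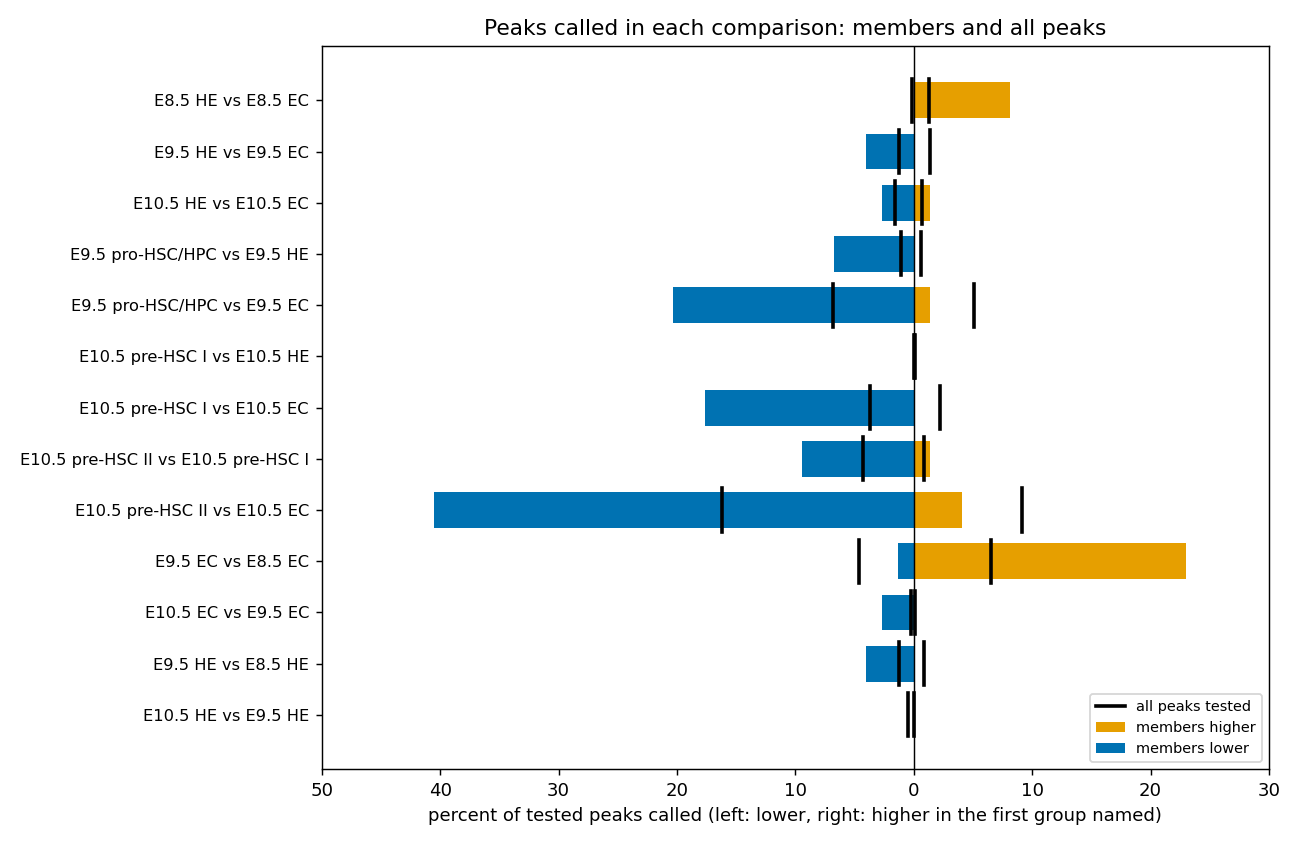
Percent of tested peaks called in each of the 13 comparisons, lower to the left and higher to the right, for the 74 member peaks (bars) and for all 67108 peaks tested (black lines). The bars reach 40.5% lower in pre-HSC II against EC, where the line stands at 16.2%, and 23% higher in E9.5 EC against E8.5 EC, where the line stands at 6.49%.

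Outside the windows, the peaks whose log2 CPM followed the summed window most closely over the 34 samples were named as a description. For Ets1 they were chr7:105720479-105722469 (Pearson r 0.955), chr15:88669369-88671441 (0.953) and chr2:124379890-124381437 (0.95). For Erg they were chr2:181409810-181412923 (0.94), chr5:134849709-134851468 (0.92) and chr10:57867671-57869334 (0.919). For Fli1 they were chr10:6237803-6239192 (0.929), chr13:83661604-83665434 (0.927) and chr13:111352478-111353701 (0.926). All samples share depth and scaling across peaks, and a pseudocount of 1 CPM was added. The windows are round positions, and their edges fall among open peaks. At Erg the last peak inside averaged 40.8 CPM over the 9 groups, against 3.76 CPM for the first peak past the window, whose midpoint lay 0.586 kb beyond its end. At Etv2 the first peak inside averaged 2.21 CPM, against 4.87 CPM for the nearest peak before the window, 1.1 kb from it. At Ets1 the last peak inside averaged 6.65 CPM, against 11.6 CPM for the nearest peak past the window, 43.8 kb away. The last Fli1 peak, number 33, lies 4.89 kb from the border with Ets1, where the first Ets1 peak was not tested and averaged 0.943 CPM.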

How the data were processed

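ATAC-seq libraries from pools of 1500 sorted cells, amplified with 13 PCR cycles per the labels' protocols, were compared from the deposited table of raw read counts per peak, in which the authors give 76018 peaks and 35 libraries. The submitters' processing notes name the build mm9 and, without roles, DiffBind 1.14.6, MACS2 2.0.1, Bowtie 1.0.0, Trim Galore 0.3.1, deepTools, bedtools 2.17.0 and SAMtools. The sources used do not say whether positions count from 0 or 1. Of counts from 10 to 49, 54.1% to 78.2% per library were even, so reads may come in pairs and fewer fragments than counts were independent. Totals of 456770 to 7415315 limit precision. Bounds of 3 counts over a group and 95% exact intervals cover counting error only and take counts as independent. With paired reads the bounds are too high and the intervals too narrow.

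Members and lists were chosen with earlier results of these data known. Peaks with low counts were left out by edgeR's default filter, which kept 67108. A quasi-likelihood model with TMM scaling and a term per group was fitted to 34 samples (R 4.3.3, edgeR 4.0.16, limma 3.58.1), with 13 comparisons and 2 interactions, a Benjamini-Hochberg adjusted p under 0.05 over all peaks, and 25 residual degrees of freedom. Libraries 2 and 3 of pre-HSC I had a chi-square per degree of freedom of 0.461, against 2.585 to 7.921 in 50 other pairs, and were averaged. Same-numbered E10.5 HE and EC libraries deviated together (r 0.115 to 0.329), which met the rule for pairing of every pair over 0.1, and no other comparison met it. The peaks named are the 3 with the highest mean in each window, the 3 called with the smallest adjusted p per comparison and direction, and the 3 outside peaks most alike in pattern to each of the Erg, Fli1 and Ets1 windows (not sought for Etv2). Other values of these peaks, and the peaks named for counts near 0, for a mean highest at E8.5 or as the remaining calls of a short list, were chosen after their values were seen.

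Alternatives were RLE and total-count scaling, no count filter, a replicate block, DESeq2 1.42.0, only the groups compared in the fit, and leaving out each sample. Thinning to the shallowest total, keeping the averaged pair apart and leaving out shallow or chromosome X-high libraries were chosen after seeing the data. The test was checked on simulated counts with known changes at stronger peaks, for E9.5 HE against EC only. That check did not cover changes at weak peaks or the pre-HSC II comparisons. Figures and promoter matches used Python 3.11.15, numpy 2.4.6, pandas 2.3.3 and matplotlib 3.10.9. Peaks were not joined to genes or sequence, since no mm9 genome was used here.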

Additional observations from a re-analysis of the deposited data

Results flagged for a closer look

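Samples were set apart where 1 of 4 lay far from the other 3, by the size of the gap relative to the range, which held for 8 of 189 groups of 4, and chance alone gives about 1 in 20. The summed CPM at Etv2 was 177.3 in E9.5 HE library 1 and 151.7 to 155.8 in the others. Etv2 peak 6 had 31.98 CPM in E8.5 HE library 2 and 73.54 to 79.01 CPM in the others. Etv2 peak 2 had 40.3 CPM in E10.5 EC library 3 and 25.18 to 26.38 CPM in the others. Etv2 peak 3 had 7.067 CPM in E10.5 EC library 1 and 14.64 to 16.07 CPM in the others. Erg peak 21 had 32.98 CPM in E10.5 EC library 1 and 51.53 to 54.76 CPM in the others. Erg peak 11 had 7.413 CPM in E9.5 HE library 3 and 1.15 to 1.957 CPM in the others. Fli1 peak 22 had 29.87 CPM in pre-HSC II library 3 and 17.35 to 19.3 CPM in the others. Ets1 peak 26 had 3.471 CPM in pre-HSC II library 1 and 0 in the others, and that library had the lowest total, 456770.

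The difference between HE and EC changed between E8.5 and E9.5, by the interaction in edgeR, by -2.399 on the log2 scale at Ets1 peak 2, by -2.163 at Fli1 peak 7 and by -1.849 at Fli1 peak 33. In each case HE was lower relative to EC at E9.5 than at E8.5.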

How the results depend on the processing

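Counts of called member peaks depended on depth and on the libraries in the fit. The share of all peaks called in each setting is not given beside them. These counts therefore do not show what is particular to the windows. With RLE size factors, E10.5 HE against EC gave 5 calls (1 higher), pre-HSC II against pre-HSC I 2 and E9.5 against E8.5 HE 5. With total counts these gave 5 (1 higher), 3 and 5. With the replicate block, E10.5 HE against EC gave 5 calls, or 7 in a fit of these 2 groups alone, and the other 14 counts stayed within 1.5 times. By DESeq2 there were 6 calls in E10.5 HE against EC, 8 in pro-HSC/HPC against HE, 1 in pre-HSC I against HE, 7 in E9.5 against E8.5 HE, 2 in E10.5 against E9.5 HE and 11 for the E8.5 to E9.5 interaction. With only the groups compared in the fit, there were 11 in E9.5 HE against EC, 0 in E10.5 HE against EC, 13 in pro-HSC/HPC against HE and 25 against EC, 1 for pre-HSC II relative to pre-HSC I, 4 in E10.5 against E9.5 EC, 15 in E9.5 against E8.5 HE and 17 for the interaction. Without the count filter all 15 counts stayed within 1.5 times.

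Of the alternatives chosen after seeing the data, thinning left 2 calls in E8.5 HE against EC, 1 in pro-HSC/HPC against HE and 9 against EC, 7 in pre-HSC I against EC, 1 for pre-HSC II relative to pre-HSC I and 13 against EC, 9 in E9.5 against E8.5 EC, 1 in E10.5 against E9.5 EC, 1 in E10.5 against E9.5 HE and 3 for the interaction. Here fewer peaks were tested, 35 of the 74. With pre-HSC I libraries 2 and 3 apart, pre-HSC I against HE gave 2. Without E10.5 HE libraries 1 and 4 it gave 8, and E10.5 HE against EC 0. Without the shallow E8.5 libraries, E8.5 HE against EC gave 0, E9.5 against E8.5 EC 5, E9.5 against E8.5 HE 1 and the interaction 0. Without the E9.5 libraries that were high at the chromosome X peak, E9.5 HE against EC gave 0, E10.5 against E9.5 EC 1, E9.5 against E8.5 HE 1 and the interaction 0. These leave fewer samples. Whether the lost calls reflect fewer samples or the libraries left out was not tested. The cause of the other changes, those after thinning included, was not tested either.

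Leaving out 1 sample gave 1 to 4 calls in HE against EC at E8.5, 2 to 2 at E9.5 and 1 to 7 at E10.5. It gave 0 to 4 in pro-HSC/HPC against HE and 11 to 16 against EC, 0 to 1 in pre-HSC I against HE and 6 to 20 against EC, and 0 to 8 for pre-HSC II relative to pre-HSC I and 30 to 41 against EC. Across days it gave 14 to 21 and 1 to 2 in EC, 2 to 3 and 0 to 3 in HE, and 3 to 7 and 0 to 0 for the interactions. Of 41 log2 fold changes at named peaks, none reversed, 280 of 327 alternatives kept the call, and 274 of 338 fits without 1 sample did. The 41 were chosen for a small adjusted p in these same data, so few reversals could occur. Fits in which a peak failed the count filter are not among the 327 or 338.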
